A study of Homo sapiens with 32 samples.

Results

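The EGF response of cells that received angiotensin II (AngII) at the same time was described in HEK293 cells after 6 h. HEK293 is an established human embryonic kidney line that had been given an expression plasmid for the human AngII receptor AT1R by transient transfection. All libraries compared came from such cells, kept without fetal calf serum before the stimuli were added. The AngII group received 1 nM AngII, and the EGF+AngII group received 1 nM AngII and 10 µg/L epidermal growth factor (EGF). Both groups had 4 libraries, so that 8 of the 32 labelled libraries of the series were compared, and 1 treatment length (6 h) is given for both agents. The comparison therefore isolates the addition of EGF to cells whose AT1R was stimulated as well. The 4 control libraries (no stimulus) and the 4 EGF libraries of the same time point entered the fit and served as the EGF response without AngII. Transient transfection leaves cells with unequal amounts of the plasmid, and the labels do not say whether libraries of a group came from separate cultures, so that p-values measure the spread between these libraries only.

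EGF binds the receptor tyrosine kinase EGFR, whose active form recruits adaptors that switch on RAS and the kinases RAF, MEK and ERK. ERK phosphorylates ternary complex factors, which sit with serum response factor (SRF) on the promoters of immediate early genes such as EGR1, FOS and ARC. It also relieves repression of the PEA3 group of ETS factors by Capicua (CIC), and the response is limited by genes that ERK induces itself, the Sprouty and SPRED proteins and the dual-specificity phosphatases. AT1R is a G protein-coupled receptor that acts through Gq, calcium and protein kinase C and can transactivate EGFR through shed ligands. In smooth muscle and kidney, both receptors are known for growth and matrix formation.

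Libraries of the AngII group held 3881841 to 6235826 counts and those of the EGF+AngII group 5518193 to 7071086, with 81.4% to 84.4% of counts on protein-coding genes. The 8 marker genes of HEK293 (among them VIM, KRT18 and NEFM) were all detected and summed to 1160 to 1320 FPM with AngII and 1500 to 1660 FPM with EGF+AngII, where FPM are counts per 1000000 of the TMM-normalised library. This sum includes NEFM and KRT18, which were called higher, and its part in the results was not tested. Markers of endothelium, leukocytes, fibroblasts and smooth muscle, and differentiated renal tubule summed to 3.41 to 10.3, 3.67 to 6.66, 52.2 to 58.5 and 20.7 to 23.6 FPM with AngII and to 6.79 to 7.37, 3.09 to 6.59, 48.6 to 57.0 and 19.5 to 23.8 FPM with EGF+AngII. The receptor gene itself, AGTR1, was read at 1319, 1318, 1399 and 1515 FPM in the AngII libraries and 1414, 1451, 1568 and 1554 FPM in the EGF+AngII libraries. These levels, which include the plasmid, overlapped between the groups (log2 fold change 0.11 ± 0.076 SE, adjusted p = 0.467 in edgeR). In the control and EGF libraries AGTR1 stood at 950.1, 1156, 1086 and 1190.0 FPM and 1236, 1023, 1071 and 1059 FPM.

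Of 18618 genes tested, 348 (1.87%) changed when EGF was added to AngII, 258 upwards (1.39%) and 90 downwards (0.483%). A gene was called at a Benjamini-Hochberg FDR under 0.05 in edgeR's quasi-likelihood test, a fold change above 1.5 (0.585 on the log2 scale) and more than 5 FPM on average in the group with the higher level. A fold change of 2 was reached by 63 of the 258 rises and 10 of the 90 falls. The median log2 fold change was 0.799 among the called rises, -0.724 among the called falls and -0.015 over all genes tested. Of the called genes, 249 and 74 were protein coding. In 241 of the 258 rises the lowest EGF+AngII library lay above the highest AngII library, an order found in 7.12% of all genes tested. The reverse order held in 77 of the 90 falls and in 5.64% of all genes tested. The called genes were chosen from these same libraries, so that their order largely follows from the call. With FDR alone and no limit on fold or FPM, 1104 genes passed (5.93%), 730 higher (3.92%) and 374 lower (2.01%).

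The largest rise was that of ETV5 (chr3:185764103-185828107 in GRCh37, the build equal to hg19), a PEA3 ETS factor that ERK signalling induces. It was read at 0, 0.48, 0.167 and 0.525 FPM in the AngII libraries and 6.61, 8.72, 12.4 and 9.02 FPM in the EGF+AngII libraries. Counts were 0 to 3 counts a library with AngII and 37 to 85 with EGF+AngII, so the transcript was near the limit of detection without EGF and present in every library with it (log2 fold change 4.94 ± 0.42 SE, adjusted p = 4.97e-08 in edgeR). The other PEA3 genes passed the FDR threshold but not the FPM limit. ETV1 rose from 0.302 to 4.6 FPM on average (log2 fold change 3.72 ± 0.54 SE, adjusted p = 9.21e-05 in edgeR), and ETV4 rose from 0.956 to 2.88 FPM (log2 fold change 1.64 ± 0.39 SE, adjusted p = 0.0118 in edgeR). All 3 PEA3 genes were higher without overlap between the groups, as were 7.12% of all genes tested, with a median log2 fold change of 3.72. ETV1, ETV4 and the genes marked so further on were picked out after their values were seen.

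EGR1 (chr5:137801168-137804992), a zinc finger immediate early factor, had the highest FPM with EGF+AngII of the 10 genes with the largest rise. Its levels were 3.04, 4, 2.33 and 3.67 FPM in the AngII libraries and 68.5, 60.3, 52.9 and 49.2 FPM in the EGF+AngII libraries. The groups were far apart (log2 fold change 4.14 ± 0.16 SE, adjusted p = 3.65e-14 in edgeR). EGR3, a close relative, was read at 0.761, 0.8, 1.33 and 0.787 FPM in the AngII libraries and 11.4, 9.81, 7.91 and 10.2 FPM in the EGF+AngII libraries, again without overlap (log2 fold change 3.36 ± 0.25 SE, adjusted p = 5.64e-09 in edgeR). AngII library 3 was the highest of the AngII libraries for EGR3. NAB2 (chr12:57482826-57489259), a corepressor that binds EGR proteins and is itself an EGR target, was read at 7.04, 5.6, 8.84 and 3.15 FPM in the AngII libraries and 32.5, 37.2, 31.3 and 36.1 FPM in the EGF+AngII libraries. The lowest EGF+AngII library stood more than 3 times above the highest AngII library (log2 fold change 2.43 ± 0.18 SE, adjusted p = 2.45e-09 in edgeR). EGR2 had too few counts for the fit, with 1 to 4 counts a library with AngII and 9 to 18 with EGF+AngII, and its libraries did not overlap (exact two-sided permutation test, p = 0.029, the smallest that 4 against 4 libraries allow). EGR4 had no count in any of the 8 libraries. NAB1, the paralogue of NAB2, did not pass the test (65.8 ± 2.9 FPM with AngII and 58.7 ± 2.65 FPM with EGF+AngII, SD, n = 4, log2 fold change -0.17 ± 0.078 SE, adjusted p = 0.23 in edgeR). Its 4 EGF+AngII libraries all lay below the 4 AngII libraries, an order found in 5.64% of all genes tested.

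**Figure D1:**
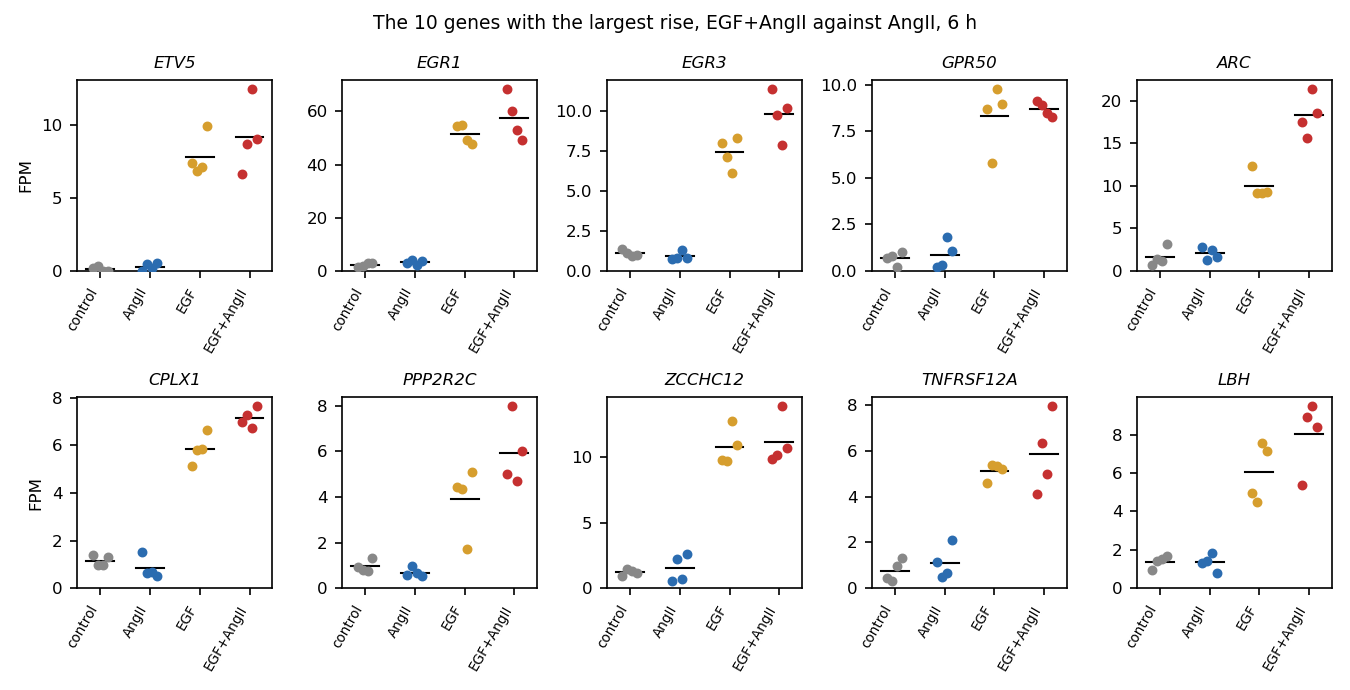
FPM (y axis, linear, from 0) of the 10 genes with the largest rise in each of the 16 libraries of the 6 h experiment, with control in grey, AngII in blue, EGF in yellow and EGF+AngII in red. Points are libraries and bars are group means. The genes were chosen among called genes whose 4 EGF+AngII libraries all lie above the 4 AngII libraries. The AngII libraries lie in or near the range of the control libraries.

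The promoters of EGR1 and of 5 called genes with a match to the EGR binding motif are shown because EGR1, EGR3 and the EGR cofactor NAB2 all rose. The motifs searched on both strands of the 300 bases around each start (250 before and 50 after it) were GCGGGGGCG and GCGTGGGCG for EGR, TGAGTCA for AP-1, TGACGTCA for CRE, TGAATGAA and TGAATGGA for CIC, CCGGAAGT for ETS factors, and the CArG box of SRF. The CArG box is CC and GG around a run of A or T. The sequences are from RefSeq (GRCh38.p14), read 5′ to 3′ on the strand of the gene, with the matched motif in capitals and the flanking bases in lower case.
EGR1 (CArG boxes, chr5:138465354-138465425, plus strand): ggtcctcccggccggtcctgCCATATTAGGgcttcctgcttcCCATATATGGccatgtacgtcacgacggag
NAB2 (EGR, chr12:57089032-57089080, plus strand): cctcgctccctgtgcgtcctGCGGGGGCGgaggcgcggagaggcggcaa
TGFB1 (EGR, chr19:41353974-41354078, minus strand): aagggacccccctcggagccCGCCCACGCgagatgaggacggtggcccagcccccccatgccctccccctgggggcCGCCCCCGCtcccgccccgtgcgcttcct
PPP2R2C (EGR, chr4:6472658-6472706, minus strand): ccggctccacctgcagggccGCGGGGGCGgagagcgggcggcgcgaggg
LBH (EGR, chr2:30231471-30231519, plus strand): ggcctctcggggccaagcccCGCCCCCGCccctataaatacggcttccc
ZCCHC12 (EGR, chrX:118823651-118823754, plus strand): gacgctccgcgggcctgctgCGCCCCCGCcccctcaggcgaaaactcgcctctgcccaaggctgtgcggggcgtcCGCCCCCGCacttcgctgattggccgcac
The EGR1 stretch holds 2 CArG boxes 105 and 83 bases before the start, and the TGFB1 and ZCCHC12 stretches hold 2 EGR matches each.

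An EGR match was present in 20.4% of the 304 promoters of called rises, in 16.2% of the 80 promoters of called falls, in 9.0% of the 15875 promoters of all genes tested and in 5.77% of all 35116 promoters of the table. The table matched 188 of the 258 rises, 59 of the 90 falls and 10794 of the genes tested, many with several promoters. Counted by gene, a match stood in 31.9% of the matched rises, 13.6% of the matched falls and 12.3% of the matched genes tested, since the 13 promoters with a match among the falls belonged to 8 genes. The median promoter had 70.2% GC among the rises and 64.7% among both the falls and all genes tested, and the part of GC content in the higher share among the rises was not tested. AP-1 matches stood in 6.25% of the promoters of rises, 1.25% of those of falls and 3.34% of those of all genes tested. CArG boxes stood in 1.97%, 0% and 1.11%, and CIC matches in 2.96%, 1.25% and 1.88%. ETS matches were less frequent among the rises (1.32%) than among the falls (6.25%) and all genes tested (7.04%). A match describes letters in the window and does not show that a factor binds there.

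Among the 15 immediate early and AP-1 genes tested, 4 rose and none fell, against 1.39% and 0.483% of all genes, with a list median of 0.461. FOS, the partner of JUN in AP-1, had low levels in every library, with 1.14, 1.44, 1.83 and 1.84 FPM in the AngII libraries and 7.51, 7.81, 6.59 and 4.51 FPM in the EGF+AngII libraries. All 4 EGF+AngII libraries were higher than all AngII libraries (log2 fold change 2.07 ± 0.28 SE, adjusted p = 3.65e-05 in edgeR). ARC, a cytoskeleton-associated protein of neurons and an SRF target, was read at 2.85, 1.28, 2.5 and 1.57 FPM in the AngII libraries and 17.5, 15.6, 21.4 and 18.5 FPM in the EGF+AngII libraries, with no overlap (log2 fold change 3.13 ± 0.26 SE, adjusted p = 2.45e-08 in edgeR). FOSL2 rose less and was at 22.5 ± 2.65 FPM with AngII and 33.8 ± 4.5 FPM with EGF+AngII (SD, n = 4, log2 fold change 0.59 ± 0.11 SE, adjusted p = 0.00174 in edgeR). FOSL1 was at 3.63 ± 1.04 FPM with AngII and 7.6 ± 1.55 FPM with EGF+AngII (SD, n = 4, log2 fold change 1.06 ± 0.3 SE, adjusted p = 0.0369 in edgeR). JUN was abundant and overlapped between the groups, with 284, 269, 336 and 268 FPM in the AngII libraries and 309, 306, 327 and 354 FPM in the EGF+AngII libraries (log2 fold change 0.16 ± 0.1 SE, adjusted p = 0.412 in edgeR). JUNB, FOSB and IER3, named after their values were seen, had log2 fold changes of 0.49, -0.064 and 1.17 with adjusted p of 0.156, 0.951 and 0.176 in edgeR. FOSL1 missed the FDR threshold when AngII 1, AngII 3, EGF+AngII 1, EGF+AngII 2 or EGF+AngII 4 was left out (log2 fold changes 0.96, 0.93, 1.04, 0.93 and 1.11). FOSL2 fell below the fold limit without AngII 3, EGF+AngII 1 or EGF+AngII 2 (0.52, 0.51 and 0.57) and under the GC offset described further on (0.55).

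No gene of SRF or its partners was called, beside 1.87% of all genes tested. Of 6 factors tested (SRF, the ternary complex factors and the MRTFs), the median was -0.0194. SRF was read at 65.8, 63.5, 71.4 and 64.8 FPM in the AngII libraries and 77.2, 60.7, 70.7 and 71.4 FPM in the EGF+AngII libraries, and MKL1 (MRTF-A) at 33.7, 32.01, 38.9 and 31.2 FPM in the AngII libraries and 32.4, 29.97, 40.3 and 34.9 FPM in the EGF+AngII libraries. Both overlapped between the groups (log2 fold change 0.076 ± 0.088 SE, adjusted p = 0.693 in edgeR for SRF, log2 fold change 0.018 ± 0.11 SE, adjusted p = 0.956 in edgeR for MKL1). The sign of the MKL1 value turned under several alternatives. ELK1, the ternary complex factor that ERK phosphorylates, was higher in every EGF+AngII library and passed the FDR threshold without reaching the fold limit, with 48.3, 50.1, 50.03 and 56.7 FPM in the AngII libraries and 73.1, 61.02, 69.3 and 65.9 FPM in the EGF+AngII libraries (log2 fold change 0.4 ± 0.083 SE, adjusted p = 0.00403 in edgeR). The coactivator MYOCD had 1 count in total, in AngII 2. None of the 17 cytoskeletal SRF and YAP targets tested was called (median 0.167), while 3 passed the FDR threshold upwards and none downwards, and 5 were separated between the groups, all higher. Over all genes tested, 3.92% passed the threshold upwards, 2.01% passed it downwards and 7.12% were separated higher. VCL (vinculin), which links actin to adhesion sites, came close to the fold limit with 143, 132, 136 and 137 FPM in the AngII libraries and 209, 196, 205 and 204 FPM in the EGF+AngII libraries (log2 fold change 0.57 ± 0.066 SE, adjusted p = 4.57e-06 in edgeR). TAGLN2 (transgelin-2) and TPM4 (tropomyosin 4) were at 0.3 and 0.4 (adjusted p = 0.0062 and 0.00703 in edgeR). CYR61 and CTGF did not pass, at 0.44 and 0.21 (adjusted p = 0.0936 and 0.761 in edgeR), and these 5 genes were named after their values were seen.

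Negative regulators of the ERK pathway were among the rises. Of 5 Sprouty and SPRED genes tested, 4 rose and none fell, against 1.39% and 0.483% of all genes tested (median 0.662). SPRED2, which blocks RAF activation by RAS, was read at 18.3, 20.6, 17.7 and 19.9 FPM in the AngII libraries and 50.6, 52.7, 50.7 and 44.5 FPM in the EGF+AngII libraries (log2 fold change 1.37 ± 0.095 SE, adjusted p = 1.6e-09 in edgeR). Both groups were tight, and the distance between them was many times the spread within either. SPRED1 had a log2 fold change of 0.95, SPRY2 of 0.66 and SPRY1 of 0.61 (adjusted p = 5.39e-06, 0.00466 and 0.00486 in edgeR). Without EGF+AngII 2, SPRY1 stood at 0.51, under the fold limit. SPRY4, named after its values were seen, had no count in any AngII library and 8 to 15 counts in each EGF+AngII library, too few for the fit.

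Of 9 dual-specificity phosphatases tested, 3 rose and none fell, against 1.39% and 0.483% of all genes tested (median 0.396). DUSP5, a nuclear phosphatase of ERK, was read at 1.52, 3.2, 2.83 and 3.41 FPM in the AngII libraries and 6.43, 5.81, 6.59 and 6.62 FPM in the EGF+AngII libraries and did not overlap between the groups (log2 fold change 1.22 ± 0.24 SE, adjusted p = 0.00213 in edgeR). DUSP4, also nuclear, was read at 9.89, 9.6, 13.3 and 6.82 FPM in the AngII libraries and 16.8, 20.3, 12.7 and 21.1 FPM in the EGF+AngII libraries, where AngII 3 stood above EGF+AngII 3 (log2 fold change 0.81 ± 0.18 SE, adjusted p = 0.00569 in edgeR). DUSP1 was at 16.7 ± 2.55 FPM with AngII and 25.2 ± 4.18 FPM with EGF+AngII (SD, n = 4, log2 fold change 0.59 ± 0.16 SE, adjusted p = 0.0269 in edgeR), with overlapping libraries. The DUSP1 call was lost without AngII 1, AngII 2, AngII 4, EGF+AngII 1 or EGF+AngII 4 (log2 fold changes 0.57, 0.52, 0.58, 0.50 and 0.58) and under the GC offset (0.52). DUSP6, the cytoplasmic ERK phosphatase, had only 3 to 6 counts a library with AngII and 5 to 18 with EGF+AngII and could not be fitted.

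No receptor or ligand gene of the EGF family was called. None of the 10 EGF receptor genes and receptor-level inhibitors tested was called (median 0.164), beside 1.87% of all genes tested. The FDR threshold was passed upwards by 2 of them, beside 3.92% of all genes tested. They were EGFR and the ubiquitin ligase gene CBL (0.27, adjusted p = 0.0356 in edgeR, named after its values were seen). EGFR itself was higher in every EGF+AngII library and passed the FDR threshold below the fold limit, with 48.3, 43.2, 39.03 and 39.4 FPM in the AngII libraries and 60.8, 67.8, 57.4 and 56.2 FPM in the EGF+AngII libraries (log2 fold change 0.51 ± 0.098 SE, adjusted p = 0.00207 in edgeR). ERRFI1, an EGFR inhibitor named after its values were seen, overlapped between the groups (19.5 ± 1.89 FPM with AngII and 22.2 ± 2.38 FPM with EGF+AngII, SD, n = 4, log2 fold change 0.19 ± 0.12 SE, adjusted p = 0.38 in edgeR). None of the 8 EGF-family ligand genes had enough counts for the test. HBEGF, the ligand shed during transactivation of EGFR, was read with 3 to 5 counts a library with AngII and 5 to 15 with EGF+AngII and its libraries overlapped (exact two-sided permutation test on FPM, p = 0.057). Of 13 AT1 receptor and G protein regulator genes tested, 1 was called, against 1.87% of all genes tested. RGS16, which speeds the shut-off of Gq and Gi, was read at 19.97, 15.5, 18.7 and 20.99 FPM in the AngII libraries and 26.6, 30.7, 27.8 and 27.4 FPM in the EGF+AngII libraries (log2 fold change 0.59 ± 0.14 SE, adjusted p = 0.0115 in edgeR). The groups did not overlap, but the fold limit was not met without AngII 2 or EGF+AngII 2 (log2 fold changes 0.50 and 0.55) or under the GC offset (0.54).

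The other genes among the 10 largest rises have varied roles. GPR50, an orphan receptor related to the melatonin receptors, was read at 0.19, 0.32, 1.83 and 1.05 FPM in the AngII libraries and 9.11, 8.9, 8.49 and 8.27 FPM in the EGF+AngII libraries (log2 fold change 3.33 ± 0.36 SE, adjusted p = 1.68e-06 in edgeR). The AngII libraries ranged widely at 1 to 11 counts while the EGF+AngII libraries were close together. CPLX1, a complexin that clamps synaptic vesicle fusion, was read at 1.52, 0.64, 0.667 and 0.525 FPM in the AngII libraries and 6.97, 7.26, 6.74 and 7.67 FPM in the EGF+AngII libraries, with AngII 1 the highest of its group (log2 fold change 3.05 ± 0.28 SE, adjusted p = 1.12e-07 in edgeR). PPP2R2C, a regulatory subunit of protein phosphatase PP2A, was read at 0.571, 0.96, 0.667 and 0.525 FPM in the AngII libraries and 5, 7.99, 4.69 and 6.02 FPM in the EGF+AngII libraries (log2 fold change 3.04 ± 0.37 SE, adjusted p = 9.93e-06 in edgeR). All were at or near a few counts without EGF. ZCCHC12, a zinc finger coactivator of BMP signalling, was read at 0.571, 2.24, 0.667 and 2.62 FPM in the AngII libraries and 9.83, 10.2, 13.9 and 10.7 FPM in the EGF+AngII libraries (log2 fold change 2.92 ± 0.29 SE, adjusted p = 4.05e-07 in edgeR). TNFRSF12A, the receptor of the cytokine TWEAK, was read at 1.14, 0.48, 0.667 and 2.1 FPM in the AngII libraries and 4.11, 6.36, 4.98 and 7.97 FPM in the EGF+AngII libraries (log2 fold change 2.53 ± 0.36 SE, adjusted p = 7.69e-05 in edgeR). LBH, a transcriptional cofactor of limb and heart development, was read at 1.33, 1.44, 1.83 and 0.787 FPM in the AngII libraries and 5.36, 8.9, 9.52 and 8.42 FPM in the EGF+AngII libraries (log2 fold change 2.51 ± 0.29 SE, adjusted p = 3.63e-06 in edgeR). The groups did not overlap in these genes, which was a condition of their choice.

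TGFB1 (chr19:41807492-41859827), the ligand of the TGF-beta receptors and a driver of matrix formation, was read at 4.57, 7.04, 7.34 and 7.08 FPM in the AngII libraries and 23.4, 29.8, 17.9 and 21.2 FPM in the EGF+AngII libraries. Each EGF+AngII library had more than 2 times the level of any AngII library, and AngII 1 was the lowest (log2 fold change 1.81 ± 0.19 SE, adjusted p = 1.1e-06 in edgeR). Of the 12 genes of this list tested, 2 rose and none fell, against 1.39% and 0.483% of all genes tested (median 0.257). The other was ID2, an inhibitor of helix-loop-helix factors, at 20.1 ± 1.5 FPM with AngII and 30.9 ± 2.28 FPM with EGF+AngII (SD, n = 4, log2 fold change 0.62 ± 0.13 SE, adjusted p = 0.00485 in edgeR). ID2 stood under the fold limit without AngII 2 (0.56) and under the GC offset (0.56). Several further called rises were named after their values were seen. C11orf96, a gene of little known function, was read at 5.14, 4.96, 5.34 and 3.15 FPM in the AngII libraries and 22.3, 21.6, 21.2 and 24.7 FPM in the EGF+AngII libraries (log2 fold change 2.24 ± 0.16 SE, adjusted p = 1.6e-09 in edgeR). PTRF (cavin-1), which coats caveolae, was read at 10.7, 11.7, 13.8 and 11.6 FPM in the AngII libraries and 37.5, 38.7, 38.7 and 50.8 FPM in the EGF+AngII libraries (log2 fold change 1.79 ± 0.16 SE, adjusted p = 9.74e-08 in edgeR). EPHA2, an ephrin receptor, was read at 8.94, 12.3, 11.8 and 9.97 FPM in the AngII libraries and 30.4, 26.1, 27.7 and 28.1 FPM in the EGF+AngII libraries (log2 fold change 1.37 ± 0.15 SE, adjusted p = 1.74e-06 in edgeR). F3, tissue factor, was at 2.34 ± 0.778 FPM with AngII and 5.73 ± 1.29 FPM with EGF+AngII (SD, n = 4, log2 fold change 1.24 ± 0.3 SE, adjusted p = 0.0124 in edgeR).

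Known targets of the hypoxia-inducible factors (HIF), some of them genes of glucose uptake and glycolysis, formed the list with the most called members. Of 17 HIF target genes tested, 6 rose, 12 passed the FDR threshold upwards, none fell, and the median was 0.487. Over all genes tested, 1.39% rose, 3.92% passed the FDR threshold upwards and 0.483% fell. SLC2A1, the glucose transporter GLUT1, was read at 54.2, 46.9, 64.4 and 48.3 FPM in the AngII libraries and 156, 195, 136 and 131 FPM in the EGF+AngII libraries (log2 fold change 1.52 ± 0.14 SE, adjusted p = 8.57e-08 in edgeR). NDRG1, a stress-induced protein, was read at 81.8, 87.2, 92.6 and 76.4 FPM in the AngII libraries and 246, 274, 202 and 209 FPM in the EGF+AngII libraries (log2 fold change 1.46 ± 0.098 SE, adjusted p = 1.35e-09 in edgeR). Every EGF+AngII library was higher than every AngII library in both. HK2, which phosphorylates glucose, was read at 70.2, 78.1, 90.1 and 78.98 FPM in the AngII libraries and 157, 181, 144 and 164 FPM in the EGF+AngII libraries (log2 fold change 1.02 ± 0.084 SE, adjusted p = 2.45e-08 in edgeR). ADM, the vasodilator peptide adrenomedullin, was at 5.4 ± 1.12 FPM with AngII and 9.88 ± 0.947 FPM with EGF+AngII (SD, n = 4, log2 fold change 0.85 ± 0.18 SE, adjusted p = 0.00363 in edgeR).

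The remaining called members, LDHA (lactate dehydrogenase) and EGLN3 (a HIF prolyl hydroxylase), had log2 fold changes of 0.67 and 0.6 (adjusted p = 1.37e-05 and 0.00238 in edgeR), EGLN3 with 0.56 under the GC offset. VEGFA, the endothelial growth factor, was at 34.02 ± 0.362 FPM with AngII and 49.2 ± 4.76 FPM with EGF+AngII (SD, n = 4) and passed the FDR threshold below the fold limit (log2 fold change 0.53 ± 0.11 SE, adjusted p = 0.00429 in edgeR). KDM3A, a HIF-induced histone demethylase, did the same (log2 fold change 0.49 ± 0.088 SE, adjusted p = 0.00114 in edgeR). Of the glycolysis genes of the list that were not called, PGK1 (0.46), ALDOA (0.47) and PFKFB3 (0.51) also passed the FDR threshold (adjusted p = 0.000952, 0.000224 and 0.00297 in edgeR), and PFKFB4 did not (0.051, adjusted p = 0.915 in edgeR). PDK1 and BNIP3 did not pass, at 0.34 and 0.35 (adjusted p = 0.131 and 0.121 in edgeR). Outside the list, EPAS1 (HIF-2 alpha) was read at 10.5, 9.6, 7.17 and 7.61 FPM in the AngII libraries and 24.7, 21.8, 24.6 and 20.8 FPM in the EGF+AngII libraries (log2 fold change 1.39 ± 0.16 SE, adjusted p = 6.7e-06 in edgeR). SLC2A3 (GLUT3), PFKP (phosphofructokinase) and ENO2 (enolase) were called too, with log2 fold changes of 1.35, 0.94 and 0.73 (adjusted p = 0.00486, 4.97e-08 and 0.00856 in edgeR). These genes, LDHA, EGLN3, VEGFA, KDM3A, PGK1, ALDOA, PFKFB3, PFKFB4, PDK1 and BNIP3 were named after their values were seen.

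Amino acid and biosynthetic genes rose in part. Of 19 ATF4 and amino acid stress genes tested, 3 rose and none fell, against 1.39% and 0.483% of all genes tested (median 0.216). They were STC2, a secreted glycoprotein, at 26.7 ± 1.86 FPM with AngII and 48.8 ± 4.85 FPM with EGF+AngII (SD, n = 4, log2 fold change 0.87 ± 0.11 SE, adjusted p = 2.21e-05 in edgeR), the leucine transporter SLC7A5 at 104 ± 19.8 FPM with AngII and 184 ± 21.2 FPM with EGF+AngII (SD, n = 4, log2 fold change 0.83 ± 0.13 SE, adjusted p = 0.000354 in edgeR), and the leucine zipper factor CEBPB. CEBPB was at 9.36 ± 2.78 FPM with AngII and 14.6 ± 1.72 FPM with EGF+AngII (SD, n = 4, log2 fold change 0.65 ± 0.17 SE, adjusted p = 0.0268 in edgeR) with overlapping libraries. It lost its call without AngII 1, AngII 2, EGF+AngII 3 or EGF+AngII 4 (log2 fold changes 0.57, 0.49, 0.58 and 0.63) and under the GC offset (0.54).

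INSIG1, which holds the sterol sensor in the endoplasmic reticulum, was the only called gene of 19 in cholesterol and fatty acid synthesis, against 1.87% of all genes tested. It was read at 176, 186, 181 and 199 FPM in the AngII libraries and 326, 302, 304 and 312 FPM in the EGF+AngII libraries without overlap (log2 fold change 0.75 ± 0.069 SE, adjusted p = 1.21e-07 in edgeR). Of 19 ribosome biogenesis genes tested, 2 passed all limits, 8 passed the FDR threshold upwards, and none fell (median 0.29). Over all genes tested, 1.39% rose, 3.92% passed the FDR threshold upwards and 0.483% fell. RRP12 was at 92.3 ± 7.9 FPM with AngII and 144 ± 17.9 FPM with EGF+AngII (SD, n = 4, log2 fold change 0.64 ± 0.11 SE, adjusted p = 0.00051 in edgeR), and RRP9 at 17.4 ± 3.19 FPM with AngII and 26.2 ± 4.02 FPM with EGF+AngII (SD, n = 4, log2 fold change 0.59 ± 0.17 SE, adjusted p = 0.0376 in edgeR). Both fell below the fold limit under the GC offset (0.57 and 0.49), and RRP12 also without EGF+AngII 4 (0.58). RRP9, just at the limit, lost its call without AngII 1, AngII 2, AngII 4, EGF+AngII 3 or EGF+AngII 4 (0.60, 0.50, 0.54, 0.54 and 0.51). ODC1 and SRM, enzymes of polyamine synthesis, and the uridine phosphorylase UPP1 were also called, at 0.64, 0.67 and 1.45 (adjusted p = 1.25e-05, 0.000106 and 1.15e-05 in edgeR, named after their values were seen).

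**Figure D2:**
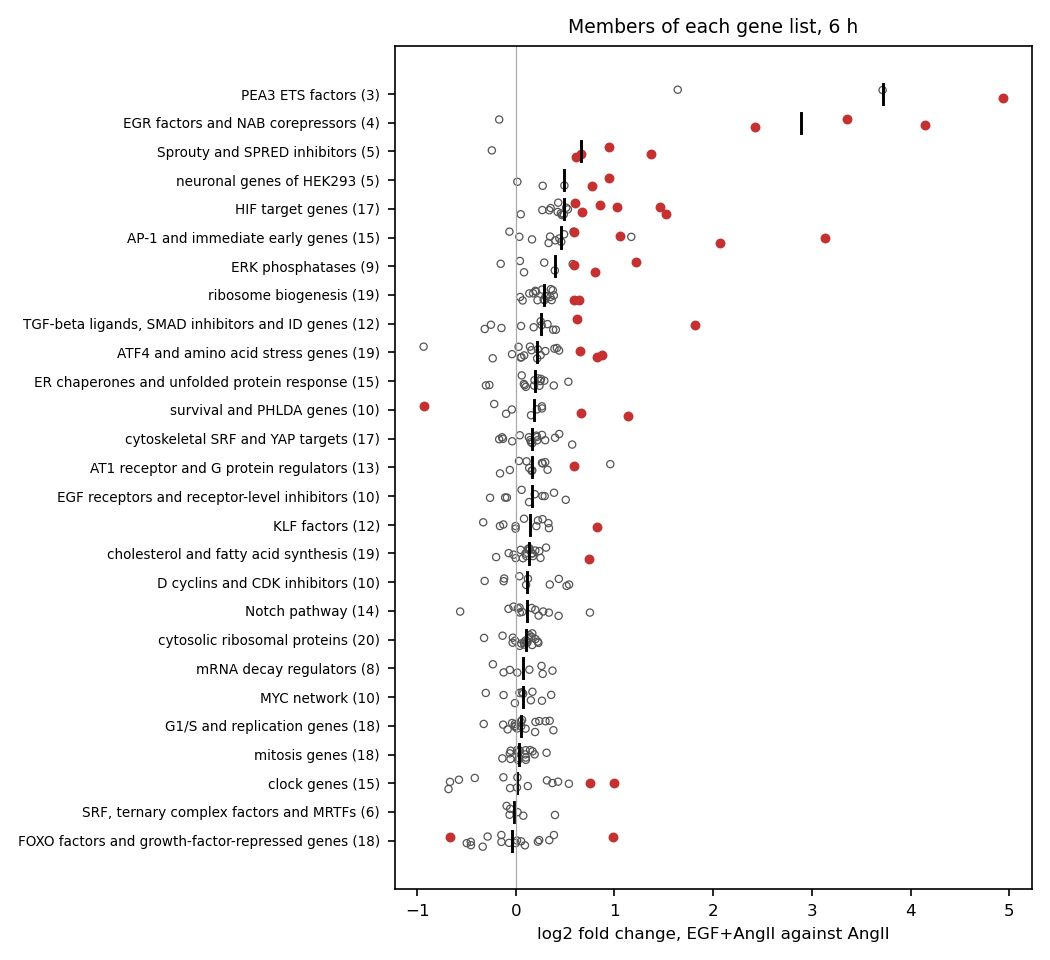
Log2 fold change of EGF+AngII against AngII (x axis) for each tested member of the gene lists (rows, number tested in parentheses, sorted by median). Filled red points are called genes, open points are not called, and black bars are list medians. The PEA3 and EGR lists lie farthest to the right with medians of 3.72 and 2.89, and the lists without a called gene centre between -0.0194 and 0.19.

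Genes of cell death and growth-factor-repressed genes moved in both directions. BCL2, the anti-apoptotic protein, was read at 13.7, 14.9, 14.3 and 13.1 FPM in the AngII libraries and 26.3, 21.2, 19.9 and 21.8 FPM in the EGF+AngII libraries (log2 fold change 0.66 ± 0.13 SE, adjusted p = 0.00193 in edgeR), and without EGF+AngII 1 it stood at 0.58, under the fold limit. BMF, a BH3-only protein that opposes BCL2, was read at 17.1, 20.96, 14.8 and 18.4 FPM in the AngII libraries and 8.58, 10.7, 8.2 and 10.1 FPM in the EGF+AngII libraries (log2 fold change -0.93 ± 0.14 SE, adjusted p = 0.000164 in edgeR). The groups did not overlap in either gene. PHLDA2, an imprinted growth restrictor, was at 2.54 ± 0.988 FPM with AngII and 5.37 ± 0.703 FPM with EGF+AngII (SD, n = 4, log2 fold change 1.13 ± 0.3 SE, adjusted p = 0.0226 in edgeR). It missed the FDR threshold without AngII 1, AngII 2, AngII 3, EGF+AngII 1, EGF+AngII 3 or EGF+AngII 4 (log2 fold changes 1.14, 1.05, 0.97, 1.06, 1.15 and 1.14). Of 10 survival and PHLDA genes tested, 2 rose and 1 fell, against 1.39% and 0.483% of all genes tested (median 0.185).

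Of 18 FOXO factors and growth-factor-repressed genes tested, 1 rose and 1 fell, against 1.39% and 0.483% of all genes tested (median -0.0344). The FDR threshold was passed by 1 upwards and 2 downwards (3.92% and 2.01% of all genes tested). The groups were separated in 2 higher and 5 lower genes (7.12% and 5.64% of all genes tested). Both called genes are alpha-arrestins that respond to glucose. TXNIP, which inhibits thioredoxin and glucose uptake, was read at 44.5, 40.6, 32.2 and 38.6 FPM in the AngII libraries and 26.1, 28.1, 22.8 and 21.5 FPM in the EGF+AngII libraries (log2 fold change -0.67 ± 0.12 SE, adjusted p = 0.00109 in edgeR). ARRDC4 was read at 36.7, 34.2, 32.02 and 33.6 FPM in the AngII libraries and 73.3, 72.5, 66.04 and 59.5 FPM in the EGF+AngII libraries (log2 fold change 0.99 ± 0.086 SE, adjusted p = 6.27e-08 in edgeR). The paralogues thus lay on opposite sides, each without overlap between the groups. KLF13 was the only called gene of 12 KLF factors tested, against 1.87% of all genes tested. It was read at 60.5, 60.8, 74.7 and 72.4 FPM in the AngII libraries and 115, 121, 119 and 121 FPM in the EGF+AngII libraries (log2 fold change 0.83 ± 0.084 SE, adjusted p = 6.96e-07 in edgeR). Of the KLF factors, 1 passed the FDR threshold upwards and 1 downwards, beside 3.92% and 2.01% of all genes tested. Their groups were separated in 4 higher and 1 lower, beside 7.12% and 5.64%. Of 15 clock genes tested, the repressor BHLHE40 (0.99) and the CLOCK relative NPAS2 (0.75) were called higher, against 1.39% of all genes tested. Their adjusted p were 1.72e-05 and 0.00132 in edgeR, and the median of the clock list was 0.0167. The FDR threshold was passed by 2 upwards and 1 downwards (3.92% and 2.01% of all genes tested). The groups were separated in 4 higher and 2 lower genes (7.12% and 5.64%). NR1D2 and DBP, named after their values were seen, were lower at 71.7, 67.7, 69 and 65 FPM and 4.29, 5.09, 4.25 and 4.81 FPM with EGF+AngII. With AngII they had 103, 87.2, 97.9 and 121 FPM and 8.18, 7.04, 8.01 and 5.77 FPM.

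Of 5 neuronal genes of HEK293 tested, 2 rose and none fell, against 1.39% and 0.483% of all genes tested. The neurofilament gene NEFM was read at 377, 438, 431 and 482 FPM in the AngII libraries and 690.0, 708, 811 and 738 FPM in the EGF+AngII libraries (log2 fold change 0.77 ± 0.097 SE, adjusted p = 1.42e-05 in edgeR), without overlap. The filament gene INA was at 4.01 ± 0.867 FPM with AngII and 7.74 ± 1.65 FPM with EGF+AngII (SD, n = 4, log2 fold change 0.94 ± 0.26 SE, adjusted p = 0.0303 in edgeR), and lost its call without AngII 1, AngII 3, AngII 4, EGF+AngII 1 or EGF+AngII 3 (0.94, 0.81, 0.94, 0.92 and 0.80).

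No gene was called in the lists of the MYC network, D cyclins and CDK inhibitors, mRNA decay regulators, the Notch pathway, ER chaperones, G1/S and replication, mitosis and cytosolic ribosomal proteins. Each of these lists held 8 to 20 tested genes. As 1.87% of all genes tested were called, no call in a list this short is near that share. The FDR threshold was passed upwards by 2 of 10 genes of D cyclins and CDK inhibitors and 2 of 18 of G1/S and replication. It was also passed upwards by 1 of 14 genes of the Notch pathway, 1 of 15 ER chaperones and 1 of 18 mitosis genes. No gene of these lists passed it downwards. Over all genes tested, 3.92% passed upwards and 2.01% downwards. MYC stood at 457, 475, 579 and 498 FPM in the AngII libraries and 499, 484, 522 and 491 FPM in the EGF+AngII libraries and overlapped (log2 fold change -0.0088 ± 0.078 SE, adjusted p = 0.971 in edgeR). CCND1 (cyclin D1), at 92.9 ± 4.84 FPM with AngII and 133 ± 6.09 FPM with EGF+AngII (SD, n = 4), was higher in all EGF+AngII libraries and passed the FDR threshold below the fold limit (log2 fold change 0.51 ± 0.076 SE, adjusted p = 0.000116 in edgeR). CANX, an ER chaperone, was at 816 ± 36.4 FPM with AngII and 863 ± 47.1 FPM with EGF+AngII (SD, n = 4, log2 fold change 0.082 ± 0.067 SE, adjusted p = 0.554 in edgeR). MYC and CCND1 were named after their values were seen.

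The falls were fewer and smaller. CASD1 (chr7:94138531-94186331), an enzyme that acetylates sialic acids, was read at 40.3, 36.8, 35.9 and 37 FPM in the AngII libraries and 18.6, 13.8, 15.7 and 14.1 FPM in the EGF+AngII libraries. AngII libraries were all above 35 FPM and EGF+AngII libraries all below 19 FPM (log2 fold change -1.27 ± 0.12 SE, adjusted p = 3.65e-07 in edgeR). HCN3, a hyperpolarisation-activated channel, was read at 9.7, 11.5, 11.8 and 11.8 FPM in the AngII libraries and 4.29, 4.54, 4.98 and 5.11 FPM in the EGF+AngII libraries, with AngII 1 the lowest AngII library (log2 fold change -1.24 ± 0.18 SE, adjusted p = 9.17e-05 in edgeR). The sodium channel gene SCN9A was read at 12.6, 12.96, 10.7 and 11.8 FPM in the AngII libraries and 6.43, 4.72, 6.44 and 4.96 FPM in the EGF+AngII libraries (log2 fold change -1.08 ± 0.18 SE, adjusted p = 0.000561 in edgeR). VWDE, a secreted protein with EGF-like domains, was read at 43.2, 48.97, 41.4 and 44.6 FPM in the AngII libraries and 21.3, 25.1, 20.5 and 19.4 FPM in the EGF+AngII libraries (log2 fold change -1.05 ± 0.11 SE, adjusted p = 1.1e-06 in edgeR). As for the rises, these falls were chosen among called genes whose groups did not overlap. ZFP14, a zinc finger protein, was read at 13.3, 12.96, 10.2 and 13.4 FPM in the AngII libraries and 5.54, 5.99, 6.44 and 4.36 FPM in the EGF+AngII libraries (log2 fold change -1.15 ± 0.17 SE, adjusted p = 0.000116 in edgeR). ENPP2, the lysophosphatidic acid-producing enzyme autotaxin, was read at 7.99, 7.36, 6.17 and 7.35 FPM in the AngII libraries and 1.97, 4.9, 3.51 and 3.61 FPM in the EGF+AngII libraries (log2 fold change -1.04 ± 0.24 SE, adjusted p = 0.00887 in edgeR).

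The other falls among the 10 largest were non-coding or pseudogene entries, whose reads may be shared with related or overlapping genes. RP11.126O22.1 was read at 8.94, 6.88, 6.17 and 5.77 FPM in the AngII libraries and 1.97, 3.09, 2.49 and 1.5 FPM in the EGF+AngII libraries (log2 fold change -1.63 ± 0.3 SE, adjusted p = 0.00132 in edgeR). GUCY1B2, a guanylate cyclase pseudogene, was read at 19.2, 20.3, 15.7 and 10.8 FPM in the AngII libraries and 7.86, 10.5, 4.98 and 7.52 FPM in the EGF+AngII libraries (log2 fold change -1.13 ± 0.22 SE, adjusted p = 0.00189 in edgeR). The AngII libraries of GUCY1B2 spread widely, and AngII 4 lay close to EGF+AngII 2. AMZ2P1 and RP11.19C24.1 had log2 fold changes of -1.16 and -1.15 (adjusted p = 0.000914 and 0.00461 in edgeR). Named after their values were seen, the receptor KIT was at -0.62, the p38 kinase activator MAP2K6 to -0.77, SRGAP3 to -0.94 and the pyruvate dehydrogenase kinase PDK2 to -0.69 on the log2 scale (adjusted p = 0.00645, 0.00989, 0.0424 and 0.0353 in edgeR).

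**Figure D3:**
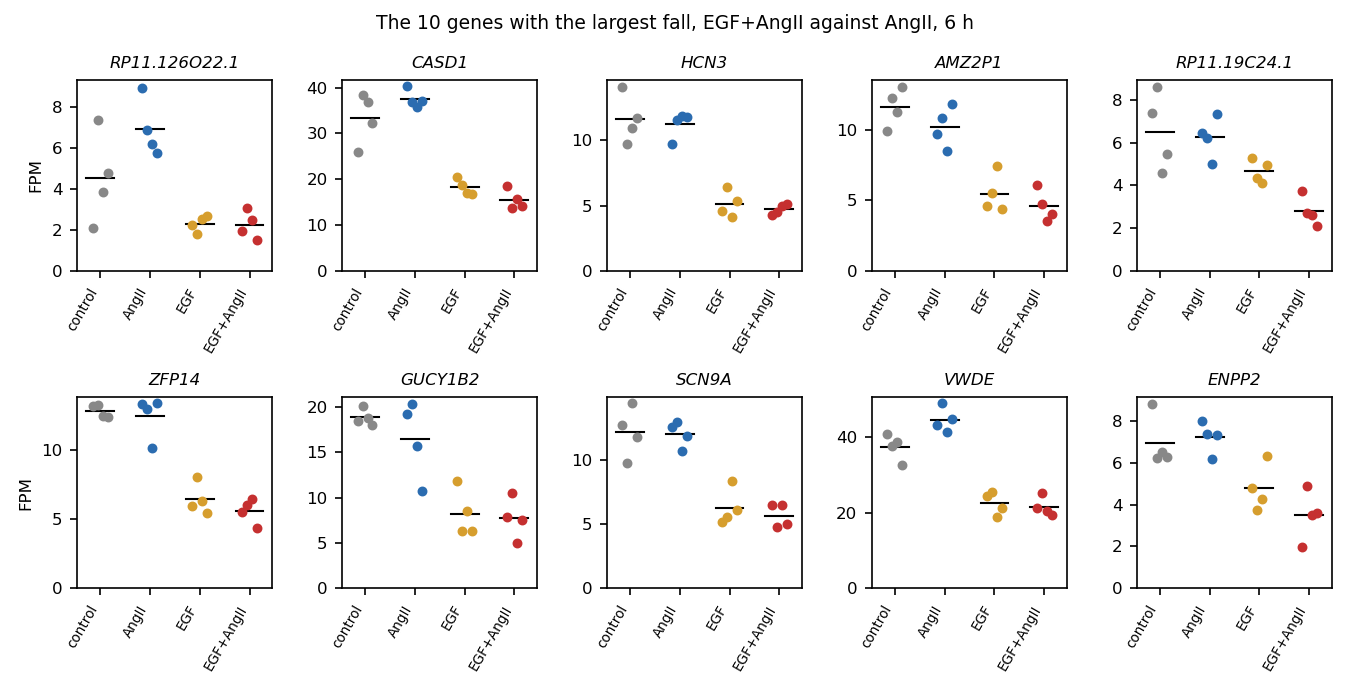
FPM (y axis, linear, from 0) of the 10 genes with the largest fall in each of the 16 libraries after 6 h, coloured and drawn as in the plot of the largest rises. The genes were chosen among called genes whose 4 EGF+AngII libraries all lie below the 4 AngII libraries, for CASD1 at 13.8 to 18.6 FPM against 35.9 to 40.3 FPM.

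To see whether AngII altered the response to EGF, the effect of EGF in the presence of AngII was set against its effect without AngII (EGF against control), which rests on 8 other libraries of the same fit. EGF alone changed 322 genes (1.73%), 194 upwards (1.04%) and 128 downwards (0.688%). Of these, 142 were higher in both comparisons (55.0% of the 258 rises with AngII and 73.2% of the 194 without it) and 38 were lower in both (42.2% of 90 and 29.7% of 128). No gene was called in opposite directions. Of the 116 rises called only in the presence of AngII, 115 had the same sign without it and 81 of these an unadjusted p under 0.05 in edgeR. Of the 52 falls called only with AngII, 48 had the same sign and 28 of these an unadjusted p under 0.05. Of 52 rises called only without AngII, 51 had the same sign with it and 35 of these an unadjusted p under 0.05. Of 90 falls called only without AngII, 83 had the same sign with it and 38 of these an unadjusted p under 0.05. The share with the same sign over all genes tested was not computed. Over all 18618 genes tested, 3768 had an unadjusted p under 0.05 in edgeR for EGF against control, in either direction. For EGF+AngII against AngII the number was 3657.

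The difference between both EGF effects was called for 0 genes in edgeR (1491 at an unadjusted p under 0.05, lowest adjusted p 0.175). DESeq2 and limma voom also called 0. Among the 490 genes called in either comparison, 91 had an unadjusted p of the difference under 0.05, and the 95% interval of the difference reached a median of 0.475 to either side on the log2 scale. Larger differences, such as those of UPP1, RBM4B and C1orf50 given further on, did not pass the adjustment over all genes either. The 258 rises had a median log2 fold change of 0.799 with AngII, the contrast they were chosen in, and 0.661 without it. The 194 genes called as rises without AngII showed 0.784 with AngII and 0.796 without it. The 90 falls had -0.724 with AngII and -0.563 without it, and the 128 falls called without AngII had -0.423 with AngII and -0.731 without it. Each of the 4 sets lay farther from 0 in the contrast that chose it, the rises called without AngII by the least. Control 1 differed most from the other control libraries (chi-square per gene 9.803 to 12.37 a pair, against 3.456 to 5.408 between the others). With control 1 left out, EGF against control called 199 genes higher and 90 lower.

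**Figure D4:**
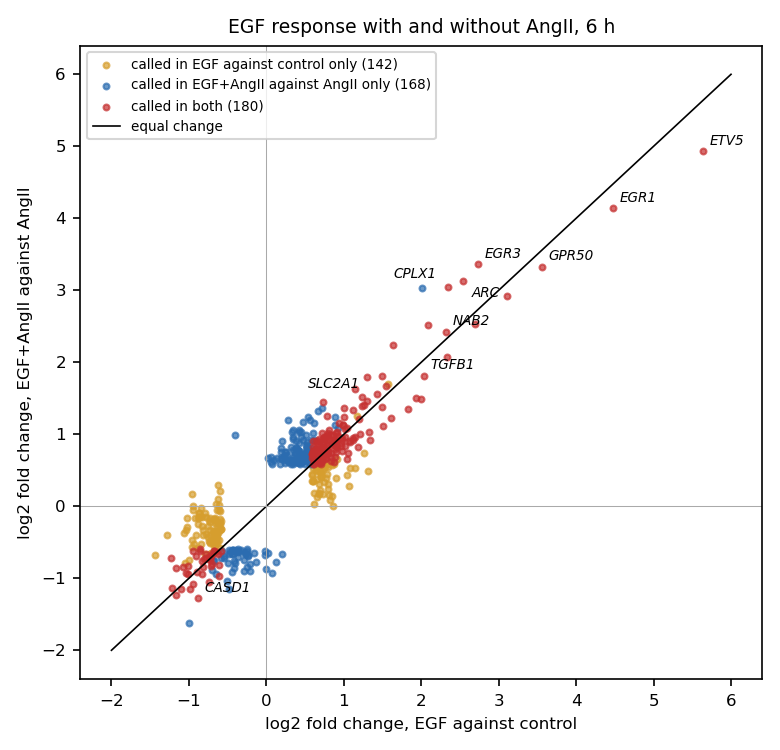
Log2 fold change of EGF+AngII against AngII (y axis) over that of EGF against control (x axis) for the 490 genes called in either comparison, by where they were called. The line marks equal change. The 180 genes called in both (red) lie along the line in the upper right and lower left, and no red point lies in the other quadrants.

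Levels of single genes in the libraries without AngII were also read. EGR1 stood at 1.39, 1.91, 2.87 and 2.81 FPM in control and 54.6, 54.7, 49.1 and 47.8 FPM with EGF, a log2 fold change of 4.48 against 4.14 with AngII (difference -0.34, 95% interval -0.94 to 0.26, unadjusted p = 0.253 in edgeR). ETV5 had 5.64 without and 4.94 with AngII (difference -0.7, 95% interval -2.67 to 1.26, unadjusted p = 0.468 in edgeR). Its counts were low, where such an interval is only approximate. SPRED2, with higher counts, had 1.5 and 1.37 (difference -0.13, 95% interval -0.41 to 0.16, unadjusted p = 0.365 in edgeR). For TGFB1 the values were 2.03 and 1.81 (difference -0.22, 95% interval -0.81 to 0.37, unadjusted p = 0.446 in edgeR).

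ARC was read at 0.694, 1.44, 1.15 and 3.14 FPM in control and 12.3, 9.12, 9.15 and 9.21 FPM with EGF. All 4 EGF+AngII libraries lay above all EGF libraries. The same order also held for JUN, CPLX1 and AGTR1, and the reverse for RP11.19C24.1. The share over all genes tested was not computed. For ARC the log2 fold changes were 2.54 without and 3.13 with AngII (difference 0.59, 95% interval -0.3 to 1.48, unadjusted p = 0.182 in edgeR). UPP1 had 0.74 and 1.45 (difference 0.71, 95% interval 0.2 to 1.23, unadjusted p = 0.009 in edgeR), and C11orf96 had 1.64 and 2.24 (difference 0.6, 95% interval 0.13 to 1.07, unadjusted p = 0.0138 in edgeR). BCL2 went the other way, with 1.04 without and 0.66 with AngII (difference -0.38, 95% interval -0.76 to -0.0028, unadjusted p = 0.0485 in edgeR). None of these passed the adjustment over all genes.

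The genes with the smallest p of the difference were RBM4B, ELMOD2, RPL29, C1orf50 and KPNA5. RBM4B, a splicing factor, was the only called gene among them in the presence of AngII, with 40.5, 39.5, 40.4 and 44.1 FPM in the AngII libraries and 27.2, 25.4, 28.7 and 24.8 FPM in the EGF+AngII libraries (log2 fold change -0.63 ± 0.099 SE, adjusted p = 0.000249 in edgeR). Without AngII it overlapped, at 28.2, 34.6, 37.4 and 33.6 FPM in control and 30.6, 32.6, 37.6 and 31.5 FPM with EGF (log2 fold change -0.022, difference -0.61, 95% interval -0.89 to -0.32, unadjusted p = 0.000219 in edgeR). C1orf50 was called lower with EGF alone (-0.63) and was at 0.3 with AngII (difference 0.93, 95% interval 0.45 to 1.4, unadjusted p = 0.00054 in edgeR). ELMOD2, RPL29 and KPNA5 had differences of -0.56, 0.55 and -0.42, smaller under the GC offset described further on (-0.30, 0.41 and -0.18). RPL29 has many processed copies in the genome that can share its reads.

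The libraries fall into a lower and a higher series of library numbers, 2 of each group in each. The effect within each series was a contrast of 1 fit of all 16 libraries. The 2 series therefore share the estimate of the spread and the FPM means of the call. Within the lower series 165 genes (0.886%) were called, 141 higher (0.757%) and 24 lower (0.129%), and within the higher series 164 (0.881%), 123 higher (0.661%) and 41 lower (0.22%). Of these, 81 were higher in both series (57.4% and 65.9%) and 14 lower in both (58.3% and 34.1%). All 258 rises and all 90 falls had the same sign in both series, with median log2 fold changes of 0.844 and 0.768 for the rises and -0.712 and -0.728 for the falls. These genes were called from the same 8 libraries, so that their shared sign was largely fixed by how they were chosen. The effect differed between the series in 0 genes at an FDR under 0.05 in edgeR (449 at an unadjusted p under 0.05). GPR50 (5.0 and 2.45), FOS (2.54 and 1.59) and TGFB1 (2.17 and 1.43) were larger in the lower series, and CPLX1 (2.74 and 3.52) in the higher.

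GC content moved with the fold changes. Across 12691 genes with a mean FPM above 5, Spearman's rho of the log2 fold change with the GC content of the longest transcript was 0.258 with AngII present, -0.294 for EGF against control and 0.565 for the difference of both. These are values across genes of the same libraries and carry no p. Libraries of a group differed in the slope, given as the correlation of a library's deviation with GC. It ran from -0.442 (AngII 4) to 0.459 (AngII 3) and from 0.0253 to 0.517 among the EGF+AngII libraries. Among the control libraries it ran from -0.237 to 0.368 (control 1), and among the EGF libraries from -0.635 (EGF 1) to 0.0474. Called rises had a median GC of 54.1%, called falls of 44.3%, and genes tested with a mean FPM above 5 of 47.1%, over the 255 of 258, 87 of 90 and 12691 of 13001 genes with a GC value.

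With a smooth curve over GC content and length taken off each library, 337 genes were called (228 higher, 109 lower), 293 of them among the 348. Of the rises 216 and of the falls 77 were kept, and rho fell to -0.00578. ETV5, EGR1, NAB2, SPRED2, SLC2A1 and CASD1 stood at 4.92, 4.09, 2.35, 1.34, 1.48 and -1.2 with the curve taken off. The difference between both EGF effects was still called for 0 genes (1033 at an unadjusted p under 0.05 in edgeR, lowest adjusted p 0.169). The difference for C11orf96 went from 0.60 to 0.37, that for ARC from 0.59 to 0.37 (unadjusted p = 0.409 in edgeR), that for KPNA5 from -0.42 to -0.18 (unadjusted p = 0.0354 in edgeR) and that for ELMOD2 from -0.56 to -0.30. Those for TGFB1 and SPRED2 went from -0.22 to -0.40 and from -0.13 to -0.19. UPP1 (0.67), RBM4B (-0.67) and C1orf50 (0.93) stayed close to their values. This alternative was chosen after the data were seen.

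**Figure D5:**
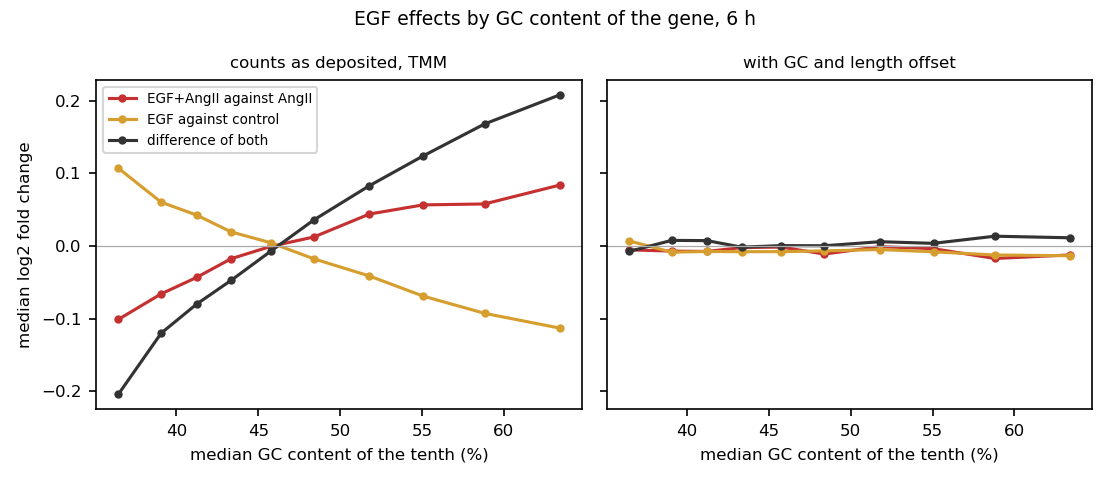
Median log2 fold change (y axis) in 10 equal bins of genes by GC content of the longest transcript (x axis, %), for EGF+AngII against AngII (red), EGF against control (yellow) and their difference (black). Left, TMM-normalised counts, where red rises and yellow falls with GC; right, the same with a GC and length curve taken off each library, where all 3 lines stay near 0.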

How the data were processed

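RNA of 16 HEK293 libraries harvested after 6 h was analysed, 4 for each of control, AngII, EGF and EGF+AngII. Per the labels and the methods, total RNA was extracted with TRIzol, treated with DNase I and depleted of rRNA (RiboMinus), and sequenced in pairs on a HiSeq2000, with reads of 100 bases per the labels and 1 base longer per the methods. The authors deposited raw counts per gene (57773 genes), made with Trim Galore, cutadapt 1.8.1, TopHat2 2.0.14 on hg19 and featureCounts 1.4.6 with Ensembl archive 75. HISAT2 is given as the mapper in the design text deposited with the series. The strand setting is not given in the sources used here, so that overlapping and antisense genes cannot be told apart, and reads of near-identical copies may be split between them. Depletion of rRNA keeps non-coding RNA in the libraries. Data of other time points were not used here.

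From the counts, TMM factors and quasi-likelihood tests were computed with edgeR 4.0.16 (R 4.3.3) in 1 fit of all 16 libraries without covariates, after filterByExpr (18618 genes kept, biological coefficient of variation 10.61%). FPM were counts per 1000000 of the TMM-normalised library. The difference of both EGF effects was a contrast of the same fit, and its 95% intervals came from the t distribution with the pooled degrees of freedom. Each SE was the absolute log2 fold change divided by the square root of its F statistic. The SE and the intervals built on them are therefore approximate. Adjusted p-values are Benjamini-Hochberg values over all genes tested. For genes with too few counts, FPM were compared by a two-sided exact permutation test of group means. Every library counted as a replicate, as the labels list them as separate samples. Pairs within a group differed by more than sampling noise (lowest chi-square per gene 2.07), so that none was counted as a library deposited again, which does not tell whether cultures were separate. Libraries of a group were numbered in the order of the records.

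Named genes were the 10 largest rises and 10 largest falls among called genes without overlap between the groups, the genes whose expression the study reports, up to 4 called members of each gene list, and the 5 genes with the smallest p of the difference; any others are marked in the text. The members and gene lists were chosen with earlier results of these data known. Alternatives were DESeq2 1.42.0, its size factors, limma voom (3.58.1), other thresholds and filters, protein-coding genes only and the 8 libraries compared alone. Others were a library series block, contrasts within each series in 1 fit of all 16 libraries, and each library left out. An offset for GC content and length of the longest GENCODE 44 transcript (GRCh37) was added after the data were seen.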

Additional observations from a re-analysis of the deposited data

Results flagged for a closer look

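Of 232 combinations of a gene or library measure and a group of 4 libraries, 12 had a library whose distance to the nearest other library exceeded Dixon's 95% limit for the range of the group. Chance alone gives about 1 in 20, or 11.6, so the number of such libraries was near that given by chance.

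In the AngII group, the distance took 0.931 of the range for EGR3 (AngII 3, high), 0.857 for CPLX1 (AngII 1, high), 0.851 for HCN3 (AngII 1, low), 0.869 for ZFP14 (AngII 3, low), 0.893 for TGFB1 (AngII 1, low) and 0.846 for ALDOA (AngII 3, high). For MYOCD it was 1.0, where AngII 2 held the only count. In the EGF+AngII group, the distance took 0.858 of the range for CANX (EGF+AngII 4, low), 0.928 for C1orf50 (EGF+AngII 4, high), 0.835 for BNIP3 (EGF+AngII 2, high), 0.848 for PFKFB4 (EGF+AngII 2, high) and 0.913 for PTRF (EGF+AngII 4, high). EGR3, CPLX1, HCN3, ZFP14 and TGFB1 kept their direction and their call when the library in question was left out.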

How the results depend on the processing

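The number of genes called for EGF+AngII against AngII stayed within 1.5 times of 348 under DESeq2 (357), its size factors (346), all genes without a filter for low counts (394), the library series block (362), protein-coding genes only (359), the 8 libraries compared alone (354), limma voom (438), an FDR of 0.01 (244), the GC and length offset (337) and the same offset with the series block (357). With each library left out in turn, the counts were 271 to 384 for EGF+AngII against AngII and 272 to 354 for EGF against control. Without the FPM and fold limits, 1104 and 1112 genes passed in the 2 comparisons. Contrasts within the lower and the higher library series, between 4 libraries each, called 165 and 164 genes. Both came from 1 fit of all 16 libraries and shared its estimate of the spread and the FPM means. The difference between both EGF effects had 0 calls under each alternative run except without the filter on low counts, which gave 48 (20 higher, 28 lower), where the cause was not tested. MKL1, not called, turned its sign within the lower series (-0.074), under the GC and length offset (-0.057) and the offset with series block (-0.055), and when single libraries were left out (range -0.0634 to 0.093). For the 99 single genes named by the rule and list medians, 1469 of 1613 alternative values kept direction and call, 98 kept direction without the call (39 of them within a single series) and 40 list medians moved by more than their spread. No paired analysis was possible because replicates carry no numbers in the labels. Genes with few counts in the AngII libraries, such as ETV5, EGR2, ETV1 and SPRY4, are limited by counting error.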

Other observations

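Zinc finger genes with names beginning in ZNF or ZFP, many of them KRAB repressors, were looked at after their values were seen. Of 488 tested, 2 (0.41%) were called higher and 2 (0.41%) lower, beside 1.39% and 0.483% of all genes tested. The FDR threshold in edgeR was passed upwards by 4 (0.82%, beside 3.92%) and downwards by 12 (2.46%, beside 2.01%), so that the falls were near the share of all genes. Their median log2 fold change was -0.074 for EGF+AngII against AngII and -0.0849 for EGF against control, beside -0.015 over all genes tested in the presence of AngII. With the GC and length offset the median was -0.0572. The median GC content of these genes was 43.2%, below the 47.1% of genes with a mean FPM above 5, and its part in the median was not tested.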
